A study of Mus musculus with 4 samples.

Results

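The genes described here make, bind and break down hyaluronan in NIH3T3 cells, compared between a line with wild-type EGFR and one with a deletion-mutant receptor. The members were 10 genes chosen by name: the hyaluronan synthases Has1, Has2 and Has3, the hyaluronidases Hyal1 and Hyal2, the receptors Cd44 and Hmmr, and the matrix proteins Tnfaip6, Vcan and Hapln1. Their names matched 17 of 55681 non-control probes on the arrays, and 7 of the 10 genes were measured above background and entered the fit over 18093 features. NIH3T3 is an immortalised line of mouse fibroblasts, and EGFR is the receptor tyrosine kinase for epidermal growth factor. Each of the 2 groups, Wild Type EGFR and Deletion Mutant EGFR, had 2 arrays of total RNA from cells at steady state, with no treatment named. Which residues were deleted, the species of the receptor, the promoter that drives it and whether a line is 1 clone are not in the labels. Nor do they say that the arrays of a group came from separate cultures, so p-values measure only array-to-array spread, which may be technical. In such bulk RNA, fewer cells of a kind and less RNA per cell cannot be told apart.

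Hyaluronan is a long, unbranched sugar polymer of the extracellular matrix, extruded by synthases that sit in the plasma membrane and use UDP-glucuronic acid and UDP-N-acetylglucosamine. Hyaluronidases cut it, CD44 holds it at the cell surface, and proteins such as versican, link protein and TSG-6 organise it into a pericellular coat. In fibroblasts this coat is known to swell around dividing and migrating cells, and Has2 is regarded as the main synthase of many mesenchymal cells.

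The comparison asked whether transcripts of this system differed between deletion-mutant and wild-type EGFR cells. Of the 7 members tested, 5 were higher in deletion-mutant cells, none was lower, and 2 did not pass, where passing means an adjusted p under 0.05 by limma after Benjamini-Hochberg adjustment over all features. Of all features, 58.8% passed in either direction, 34.6% upward and 24.2% downward. Cd44, the main hyaluronan receptor, rose 2.54-fold, the spindle and hyaluronan-binding protein Hmmr 1.81-fold and the synthase Has2 1.62-fold. Hyal2 rose 1.29-fold and Tnfaip6 1.26-fold, and these calls were lost under some scalings, as given below. At an unadjusted p under 0.05, which 11604 of the 18093 features met, limma gave the same 5 members higher and 0 lower. The median log2 fold change of the 7 members was 0.37, beside 0.07 over all features. Only Cd44 passed with a change of at least 2-fold, which 5.94% of all features did upward and 7.46% downward.

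All values below are log2 signals after the 75th percentile of the array was subtracted, so that 0 is the level of that percentile on the array. The spread given is the SD over 2 arrays, and levels of different probes are not comparable with each other. Where groups are said not to overlap, this describes 2 against 2 arrays, and the share of all features without overlap was not counted. On the 4 arrays, 42.9% to 46.9% of probes were well above background, 0 spots were saturated, and each array's 75th percentile was between 327.0 and 366.6 intensity units. The correlation across features was 0.9976 and 0.9968 within the groups and 0.960 to 0.961 between them. All arrays lay on 1 slide and were scanned together, with each group in a slide column of its own, so column and group cannot be told apart. The replicate 1 arrays shared slide row 1 and the replicate 2 arrays slide row 2. All 9 fibroblast markers were above background on every array, 7 of them lower and 1, Vim, higher in deletion-mutant cells. Their summed signal was 659641 and 723226 intensity units on the wild-type arrays and 450616 and 499882 on the deletion-mutant arrays. Of 6 epithelial markers only Krt8 was above background, and only on the deletion-mutant arrays. Among the leukocyte markers, Ptprc, Cd52 and Lyz2 were at background on all arrays while Itgam, Cd68 and Cd3e were above it. The summed signal of that list was 12096 and 13786 intensity units on the wild-type arrays and 6615 and 7059 on the deletion-mutant arrays, and Itgam, the brightest of them, made up most of it, with 11380 and 12996 units against 5943 and 6377. Itgam fell by 0.92 (log2, limma adjusted p = 0.00109), while Cd3e and Cd68 (-0.10 each, adjusted p = 0.225 and 0.359) did not pass. The part of these shifts in the results was not tested. Of 4 endothelial markers, Pecam1 fell by 0.40 (limma adjusted p = 0.0111), Kdr did not pass (-0.03, adjusted p = 0.756), and Cdh5 and Tek were at background. Of 4 cartilage markers, Sox9 rose by 0.47 (limma adjusted p = 0.0040), Acan and Matn1 were at background, and Col2a1 was above it on 1 array. The 4 skeletal muscle markers were at background throughout. The brightest probe of mouse Egfr was at background on the deletion-mutant arrays and at least 11.5-fold lower there, but a mouse probe may not match the introduced receptor. Its limma adjusted p = 0.000146 belongs to the fitted value, not to this bound.

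**Figure D1:**
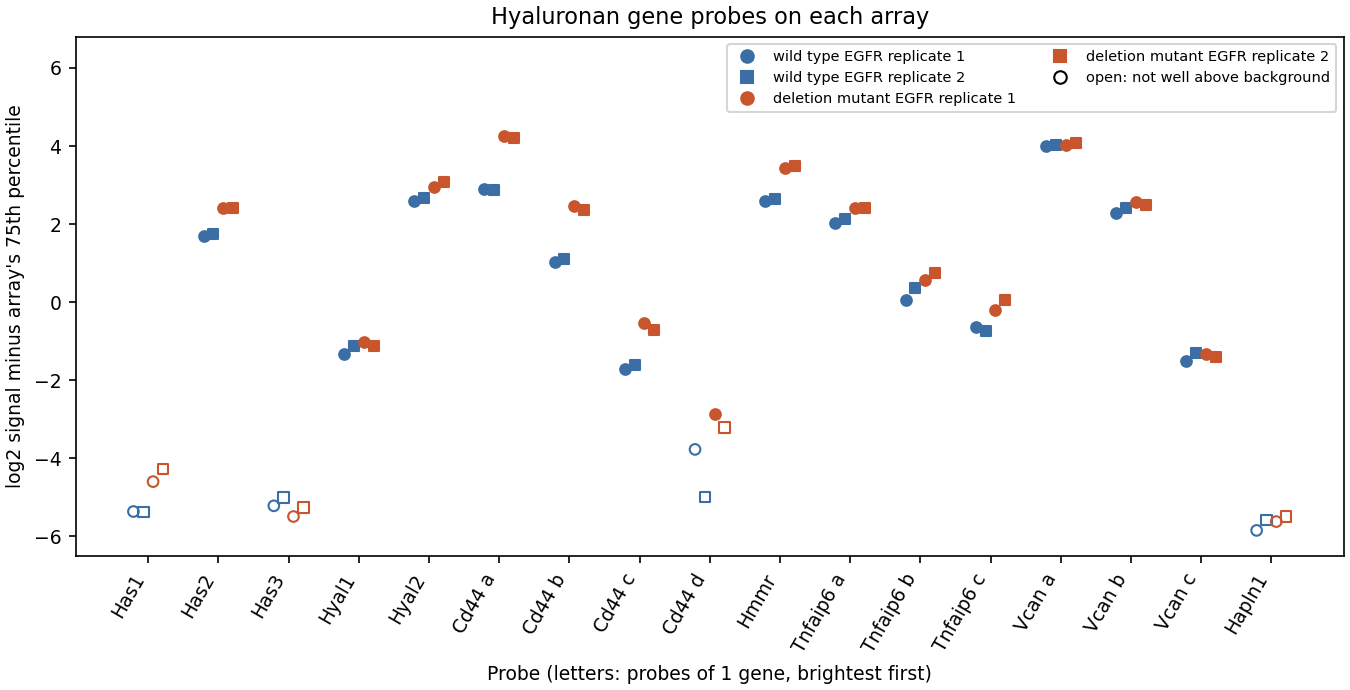
Log2 signal of the 17 probes of the 10 hyaluronan genes on each of the 4 arrays, relative to the array's 75th percentile; blue points are wild-type and orange points deletion-mutant EGFR arrays, and open points were not well above background. The groups stand apart for Has2, Cd44 and Hmmr, lie together for Hyal1 and Vcan, and Has1, Has3 and Hapln1 lie near the bottom of the scale on every array.

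Among the synthases, Has2 was the only one above background. Its probe, on chromosome 15 from 56497356 to 56497415 (mm9, minus strand), gave 1.71 and 1.74 on the wild-type arrays and 2.41 and 2.42 on the deletion-mutant arrays. Both deletion-mutant arrays lay above both wild-type arrays, and arrays of the same group almost coincided. The log2 fold change was 0.69 ± 0.055 (SE, 2 arrays in each group; limma adjusted p = 0.00141), with a 95% interval from 0.54 to 0.84, and it ranked at the 87.5th percentile of all features.

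Has1, which makes hyaluronan at a low rate, stayed at background on all 4 arrays. Its probe (chromosome 17, 17980413 to 17980472, mm9) gave -5.36 and -5.38 on the wild-type arrays and -4.60 and -4.27 on the deletion-mutant arrays, which did not overlap. Both groups lay below the detection limit, so no fold is given. Has3, the synthase of shorter chains (chromosome 8, 109405354 to 109405413, mm9), was at background on all arrays as well, with -5.22 and -5.01 against -5.49 and -5.26. On 2 of these arrays its signal was a surrogate value that the scanner software sets for spots indistinguishable from background.

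Cd44 encodes the transmembrane receptor that anchors hyaluronan to the cell and links it to the actin cortex. The array carried 4 probes for it, all on the minus strand of chromosome 2 (mm9) and lettered here by brightness. Probe a, at 102651398 to 102651457, lies closest to the 3′ end of the gene. Probe b, at 102654278 to 102654337, spans the end of the coding sequence. Probes c (102677971 to 102678030) and d (102672645 to 102672704) lie further upstream, in the stretch of the gene that carries the alternatively spliced variable exons; no exon annotation of mm9 was used here. The sequences of probes b, c and d are shown because they set the constant cytoplasmic end of the receptor, with its stop codon in capitals in probe b, apart from the variable stretch.
Cd44 probe b: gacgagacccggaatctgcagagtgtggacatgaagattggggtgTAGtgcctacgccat
Cd44 probe c: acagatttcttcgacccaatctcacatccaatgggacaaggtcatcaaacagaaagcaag
Cd44 probe d: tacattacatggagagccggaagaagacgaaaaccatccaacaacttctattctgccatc

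Probe a, which represents the gene, gave 2.91 and 2.88 on the wild-type arrays and 4.26 and 4.21 on the deletion-mutant arrays. The groups lay far apart relative to the spread within them. The log2 fold change was 1.35 ± 0.058 (SE, 2 arrays in each group; limma adjusted p = 0.000444), with a 95% interval from 1.19 to 1.50, at the 97.1th percentile of all features.

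Probe b gave 1.03 and 1.11 against 2.47 and 2.35. With every probe fitted by itself, its log2 fold change was 1.34 ± 0.076 (limma adjusted p = 0.00099). The probes at the constant end of the transcript thus rose by nearly the same amount, with a difference between their log2 fold changes of 0.01.

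Probe c of the variable stretch gave -1.72 and -1.61 against -0.52 and -0.71, a log2 fold change of 1.05 ± 0.095 (limma adjusted p = 0.00229). It rose as well, by 2.07-fold. The level of probe a over probe c was 4.63 and 4.48 (log2) on the wild-type arrays and 4.79 and 4.92 on the deletion-mutant arrays. The level of probe b over probe c was 2.75 and 2.72 on the former and 2.99 and 3.06 on the latter. On both measures the groups did not overlap, and the log2 fold change of probe c was smaller by 0.30 and 0.29. That difference was not tested across features, and probe c was dim, between 104.6 and 227.6 intensity units. Such a gap was not particular to the variable stretch. The brightest and dimmest Tnfaip6 probes, described below, also differed without overlap, with -0.28 between their log2 fold changes. So did Vcan probe b beside the brightest Vcan probe (-0.15) and beside Vcan probe c (0.15). Other pairs did overlap, among them Cd44 probes a and b. Probe d was above background only on the deletion-mutant replicate 1 array and entered no test, with -3.77 and -4.99 against -2.87 and -3.22.

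Hmmr encodes RHAMM, a hyaluronan-binding protein that is also a microtubule-associated protein of the mitotic spindle, with a transcript known to peak in G2 and mitosis. Its probe (chromosome 11, 40515324 to 40515383, mm9, minus strand) gave 2.60 and 2.64 on the wild-type arrays and 3.45 and 3.49 on the deletion-mutant arrays. Both deletion-mutant arrays were higher by far more than the spread within a group. The log2 fold change was 0.85 ± 0.058 (SE, 2 arrays in each group; limma adjusted p = 0.00102), with a 95% interval from 0.70 to 1.01, at the 91.5th percentile of all features.

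**Figure D2:**
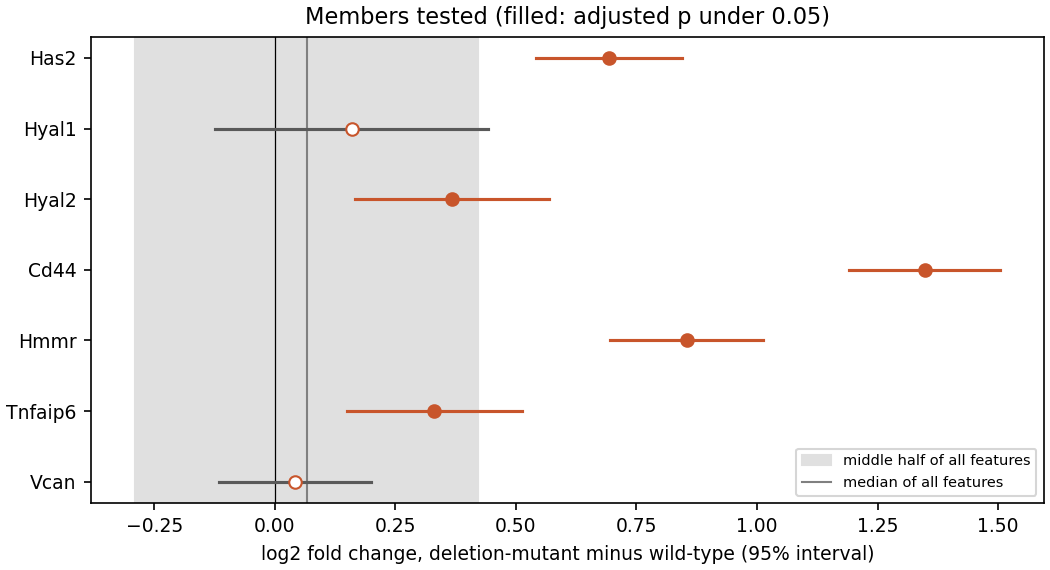
Log2 fold change of deletion-mutant minus wild-type EGFR cells for the 7 tested members, with the 95% interval; the grey band runs from -0.29 to 0.42, the lower and upper quartile of all 18093 features, and the grey line is their median of 0.07. Has2, Cd44 and Hmmr lie to the right of the band, while the points of Hyal2 and Tnfaip6, though called, lie inside it together with Hyal1 and Vcan.

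Of the degrading enzymes, Hyal2 is anchored to the cell surface and cuts long chains, and Hyal1 is the lysosomal enzyme that cuts them further. Their probes lie 6.94 kb apart on chromosome 9 (mm9, plus strand), Hyal2 from 107474949 to 107475008 and Hyal1 from 107481893 to 107481952. Hyal2 gave 2.60 and 2.67 on the wild-type arrays and 2.94 and 3.07 on the deletion-mutant arrays. The groups did not overlap, and the log2 fold change was 0.37 ± 0.074 (SE, 2 arrays in each group; limma adjusted p = 0.015), with a 95% interval from 0.17 to 0.57. The call was lost under quantile normalization (0.18, limma adjusted p = 0.0937) and with no background filter (0.37, adjusted p = 0.0945). The same held when the 75th percentile was taken over probes above background on all arrays (0.17, adjusted p = 0.104). It was also lost without deletion-mutant replicate 2 (0.30, adjusted p = 0.05005), without wild-type replicate 1 (0.33, adjusted p = 0.0796) and without wild-type replicate 2 (0.40, adjusted p = 0.0556), each by limma.

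Hyal1 gave -1.34 and -1.11 on the wild-type arrays and -1.01 and -1.13 on the deletion-mutant arrays, which overlap. Its fitted log2 fold change of 0.16 ± 0.104 (limma adjusted p = 0.251) did not pass, and the 95% interval ran from -0.12 to 0.44. Under median scaling it passed upward (0.34, limma adjusted p = 0.0306).

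Tnfaip6 encodes TSG-6, a secreted protein with a hyaluronan-binding link module that transfers heavy chains of inter-alpha-inhibitor onto hyaluronan. Its 3 probes lie within 1 short stretch of chromosome 2 (mm9, plus strand), from 51911507 to 51912201. The brightest gave 2.02 and 2.13 on the wild-type arrays and 2.41 on each deletion-mutant array, a log2 fold change of 0.33 ± 0.067 (SE, 2 arrays in each group; limma adjusted p = 0.0152). The groups did not overlap at this probe, nor at the others. The middle probe gave 0.05 and 0.36 against 0.57 and 0.75, and fitted by itself it did not pass (0.45 ± 0.140, limma adjusted p = 0.0534). The dimmest gave -0.63 and -0.73 against -0.21 and 0.06, and it passed with the largest of the 3 changes (0.61 ± 0.113, limma adjusted p = 0.0137).

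The call at the brightest Tnfaip6 probe was lost under quantile normalization (0.16, limma adjusted p = 0.0923) and with no background filter (0.33, adjusted p = 0.101). It was lost too under the percentile of the probes above background on all arrays (0.14, adjusted p = 0.121). Left without wild-type replicate 1, deletion-mutant replicate 1 or deletion-mutant replicate 2, it had 0.27, 0.33 and 0.33, with limma adjusted p = 0.0689, 0.05004 and 0.0506.

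Vcan encodes versican, a large chondroitin sulfate proteoglycan whose amino-terminal domain binds hyaluronan, and it did not pass at any probe. Its brightest probe (chromosome 13, 89795080 to 89795139, mm9, minus strand) gave 3.99 and 4.03 on the wild-type arrays and 4.03 and 4.08 on the deletion-mutant arrays. The groups did not overlap at this probe either, by a narrow margin. The log2 fold change was 0.04 ± 0.058 (SE, 2 arrays in each group; limma adjusted p = 0.562), with a 95% interval from -0.11 to 0.20. Its sign depended on the scaling: it was -0.19 under quantile normalization (limma adjusted p = 0.0486) and 0.22 under median scaling (adjusted p = 0.0374), both of which passed. Probe b, at 89851810 to 89851869, is shown because it reads coding sequence far upstream of the 3′ end and carried the largest change at this gene.
Vcan probe b: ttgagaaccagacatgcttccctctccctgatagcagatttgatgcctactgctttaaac

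Vcan probe b gave 2.29 and 2.40 on the wild-type arrays and 2.57 and 2.50 on the deletion-mutant arrays, without overlap but also without passing, at a log2 fold change of 0.19 ± 0.074 (limma adjusted p = 0.0944). Probe c, at 89850072 to 89850131, gave -1.50 and -1.31 against -1.32 and -1.41, which overlap (0.04 ± 0.093, limma adjusted p = 0.704). Hapln1, the link protein that locks versican and aggrecan onto hyaluronan, lies 44.0 kb from the brightest Vcan probe (89751096 to 89751155, mm9, plus strand). It was at background on all 4 arrays, each with a surrogate signal, and gave -5.85 and -5.58 on the wild-type arrays and -5.62 and -5.49 on the deletion-mutant arrays.

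**Figure D3:**
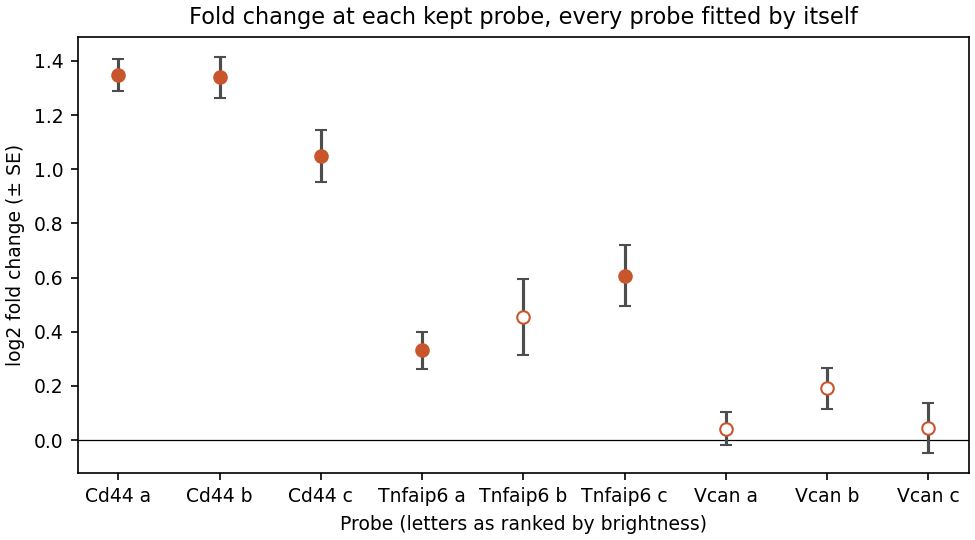
Log2 fold change with its SE at each kept probe of the 3 members with several probes, every probe fitted by itself; filled points passed an adjusted p of 0.05. Cd44 rose at each of its 3 kept probes, with the least change at probe c, Tnfaip6 ranged from 0.33 to 0.61, and no Vcan probe passed.

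RefSeq promoter sequences (GRCm38.p6) were at hand for 8 of the 10 members, of which Cd44, Hmmr and Tnfaip6 are shown because they rose and represent the receptors and the matrix proteins. Each runs over the 250 bases before the annotated start and was searched on both strands for 7 motifs. These were TATAAA (the TATA box), CCAAT (bound by NF-Y), GGGCGG (bound by SP factors), TGANTCA (bound by AP-1 factors), TGACGTCA (bound by CREB and ATF factors), CATTCC (bound by TEAD factors) and TTTGAA (the cell cycle homology element). Matches are in capitals, and adjoining or overlapping matches form 1 run of capitals.
Cd44 (chr2:102901666-102901915, minus strand): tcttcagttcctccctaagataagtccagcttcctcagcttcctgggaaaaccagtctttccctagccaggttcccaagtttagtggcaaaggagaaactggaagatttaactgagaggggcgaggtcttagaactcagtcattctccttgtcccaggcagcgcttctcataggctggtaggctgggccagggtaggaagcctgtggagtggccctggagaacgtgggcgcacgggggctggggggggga
Hmmr (chr11:40733438-40733687, minus strand): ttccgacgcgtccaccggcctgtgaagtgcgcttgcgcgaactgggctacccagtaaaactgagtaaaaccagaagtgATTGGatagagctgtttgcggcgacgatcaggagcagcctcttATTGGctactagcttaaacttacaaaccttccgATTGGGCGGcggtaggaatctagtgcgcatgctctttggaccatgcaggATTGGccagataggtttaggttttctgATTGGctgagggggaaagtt
Tnfaip6 (chr2:52037863-52038112, plus strand): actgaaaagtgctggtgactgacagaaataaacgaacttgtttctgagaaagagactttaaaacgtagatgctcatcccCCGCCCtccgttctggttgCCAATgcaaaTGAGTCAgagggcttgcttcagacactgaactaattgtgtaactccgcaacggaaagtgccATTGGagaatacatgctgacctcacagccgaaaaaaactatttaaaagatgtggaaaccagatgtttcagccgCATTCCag

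The Cd44 window held none of these letters, as did 24.1% of all 32851 promoter windows of this length. The Hmmr window held 5 CCAAT motifs, all on the opposite strand, 1 of which overlaps a GGGCGG. At least 1 CCAAT was present in 33.8% of all windows and at least 5 in 0.213%. The Tnfaip6 window held 1 TGANTCA, which 6.75% of all windows hold, 142 bases before the start. It also held 2 CCAAT, 1 GGGCGG (32.7% of all windows) and 1 CATTCC (12.6%). The Has1 window, not shown, held 1 TGACGTCA, which 1.55% of all windows hold, 1 CCAAT and 1 TTTGAA (16.0%). Of the other windows not shown, that of Hyal2 held 1 CATTCC and 1 GGGCGG. The windows of Hyal1 and Vcan each held 1 CCAAT and 2 GGGCGG, and that of Hapln1 held no match. These matches describe letters in a window and no binding was measured.

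Beyond the 10 members, 49 further genes of hyaluronan metabolism were listed by role, and 32 of them were above background in at least 1 group. Of these, 7 were higher, 13 lower and 12 did not pass, so that 62.5% passed beside 58.8% of all features, and their median log2 fold change was -0.07. A change of at least 2-fold was fitted for 1 higher and 8 lower genes, 4 of the latter with a brightest probe at background in deletion-mutant cells. Those 4 entered the fit only through the wild-type arrays, so the filter all but fixed their direction. For a probe at background in 1 group only a lower bound is given, which sets the bright group against the higher of the lowest detected signal and the probe's own.

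Enzymes that make or turn over the sugar precursors showed small changes in both directions: 2 of 10 rose, 2 fell and 6 did not pass. Thus 40% of them passed, beside 58.8% of all features (34.6% upward and 24.2% downward). Gnpnat1 and Uap1, which act in the synthesis of UDP-N-acetylglucosamine, rose by 0.65 ± 0.133 and 0.34 ± 0.056 (log2, limma adjusted p = 0.0156 and 0.00849). Nagk, the N-acetylglucosamine kinase of salvage, fell by 0.62 ± 0.101, and Gnpda2 fell by 0.20 ± 0.058 (limma adjusted p = 0.00823 and 0.0433). With every probe fitted by itself, Gnpda2 did not pass (limma adjusted p = 0.0523). Ugdh, which makes UDP-glucuronic acid, had 0.11 ± 0.072 (limma adjusted p = 0.256). Median scaling gave 4 higher and 1 lower in this group, and the percentile of probes above background on all arrays gave the opposite split.

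Among the enzymes of degradation outside the members, Gusb rose, Cemip fell, and Hexa (-0.12) and Cemip2, named Tmem2 on the array (-0.02), did not pass. Cemip, a hyaluronan-binding protein needed for hyaluronan depolymerisation in skin fibroblasts and named 9930013L23Rik on the array, gave -2.14 and -2.24 on the wild-type arrays. On the deletion-mutant arrays it was not well above background (-4.75 and -5.11), and it was at least 2.32-fold lower. Its limma adjusted p = 0.000596 belongs to the fit through these undetected signals, not to the bound, and its probe was kept only through the wild-type arrays. The lysosomal glucuronidase Gusb rose by 0.33 ± 0.054 (limma adjusted p = 0.00886).

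Among 7 measured receptors and binding proteins, C1qbp and Hapln3 rose, Stab2, Bcan and Habp4 fell, and Layn (-0.05) and Hapln4 (0.09) did not pass. A second Layn probe, fitted by itself, was higher (0.33, limma adjusted p = 0.0122). C1qbp, a mainly mitochondrial protein also described as a hyaluronan-binding protein, rose by 0.71 ± 0.056 (log2, limma adjusted p = 0.00141). The brain proteoglycan Bcan gave -1.58 and -1.65 on the wild-type arrays and -2.78 and -3.28 on the deletion-mutant arrays, the last not well above background (fitted log2 fold change -1.42 ± 0.181, limma adjusted p = 0.00426). The scavenger receptor Stab2 was at least 1.21-fold lower, with -3.20 and -3.07 against -5.59 and -4.51. Only 1 of its 3 probes was kept, and only through the wild-type arrays, so the filter all but fixed its direction. That probe was dim there, at 37.4 and 43.8 intensity units. The lymphatic receptor Lyve1 and the cartilage proteoglycan Acan were not well above background on any array.

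Of 7 proteins that crosslink the hyaluronan matrix together with TSG-6, 2 were measured. Those 2 were lower, beside 24.2% of all features lower. Ptx3, the pentraxin that binds TSG-6 and the heavy chains in the cumulus matrix, gave 3.09 and 3.04 on the wild-type arrays and -2.66 and -2.40 on the deletion-mutant arrays. It was 48.5-fold lower (-5.60 ± 0.108, SE, 2 arrays in each group; limma adjusted p = 0.000146). The heavy chain gene Itih2 fell by 0.79 ± 0.077 (adjusted p = 0.00215), and Itih1, Itih3, Itih4, Itih5 and the bikunin precursor Ambp were at background. Both falls were called under each other scaling tried, over which the median of all features lay between -0.13 and 0.25 (log2).

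The metalloproteases that cleave versican were lower in 4 of 5 measured cases and higher in none, beside 24.2% of all features lower. Adamts5 and Adamts15 were represented by probes kept only through the wild-type arrays, so the filter all but fixed their direction. When only probes above background on all 4 arrays were used, 4 of these genes were measured and all 4 were lower. Adamts1 gave 6.16 and 6.28 on the wild-type arrays and 3.34 and 3.31 on the deletion-mutant arrays, a 7.43-fold fall (-2.89 ± 0.068, adjusted p = 0.000177). Adamts9 gave -0.66 and -0.65 on the wild-type arrays and had a mean of -2.08 ± 0.119 (SD) on the deletion-mutant arrays, a 2.68-fold fall (limma adjusted p = 0.000708). The brightest Adamts5 probe gave 1.56 and 1.57 on the wild-type arrays, was at background on the deletion-mutant arrays (-3.36 and -3.39) and was at least 29.8-fold lower. The other Adamts5 probe was above background on all 4 arrays, with 0.83 and 1.03 against -2.85 and -3.10, and fell 15.0-fold when fitted by itself (limma adjusted p = 0.000444). Adamts15 was at background in deletion-mutant cells and at least 1.46-fold lower. Adamts4 did not pass at its brightest probe (-0.22 ± 0.069, limma adjusted p = 0.0525) but did at the other (-1.10, limma adjusted p = 0.0030). The median of the 5 was -2.36 (log2), or -1.42 with probes at background set at their bound.

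**Figure D4:**
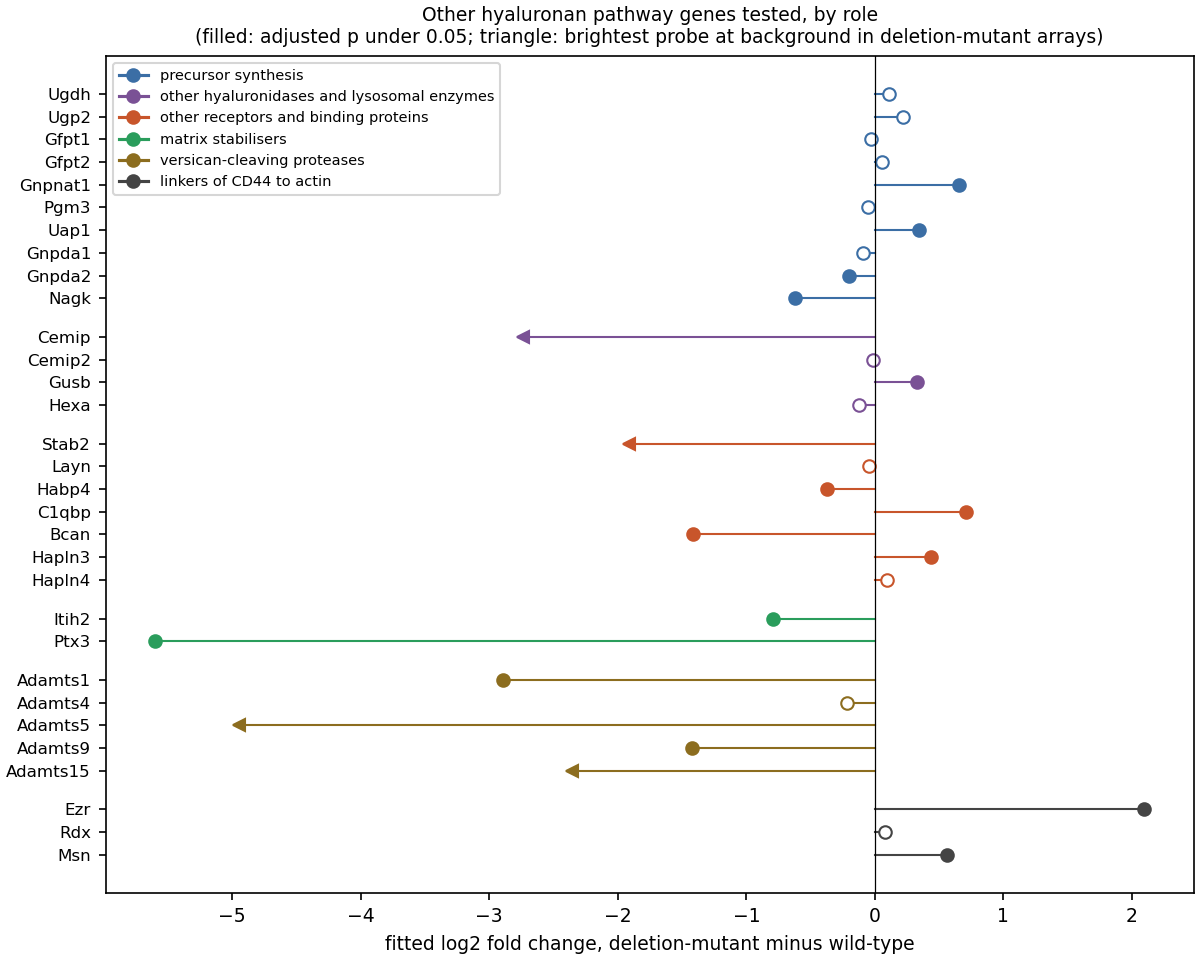
Fitted log2 fold change of measured genes of hyaluronan metabolism outside the members, coloured by role; filled symbols passed an adjusted p of 0.05 and triangles mark genes whose brightest probe was at background in deletion-mutant cells, for which the fitted value is no measured fold. Ptx3 and Adamts5 reach furthest to the left, and Ezr furthest to the right.

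The ezrin, radixin and moesin proteins couple the cytoplasmic tail of CD44, whose end is read by probe b, to actin. Ezr gave 0.14 and 0.17 on the wild-type arrays and 2.25 and 2.26 on the deletion-mutant arrays, a 4.28-fold rise (2.10 ± 0.055, SE, 2 arrays in each group; limma adjusted p = 0.00021). Msn gave 5.51 and 5.56 against 6.17 and 6.02 and rose by 0.56 ± 0.076 (adjusted p = 0.00514). Rdx did not pass at its brightest probe (0.08 ± 0.066, limma adjusted p = 0.345), and at its other probe it was lower (-0.35, limma adjusted p = 0.0112).

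**Figure D5:**
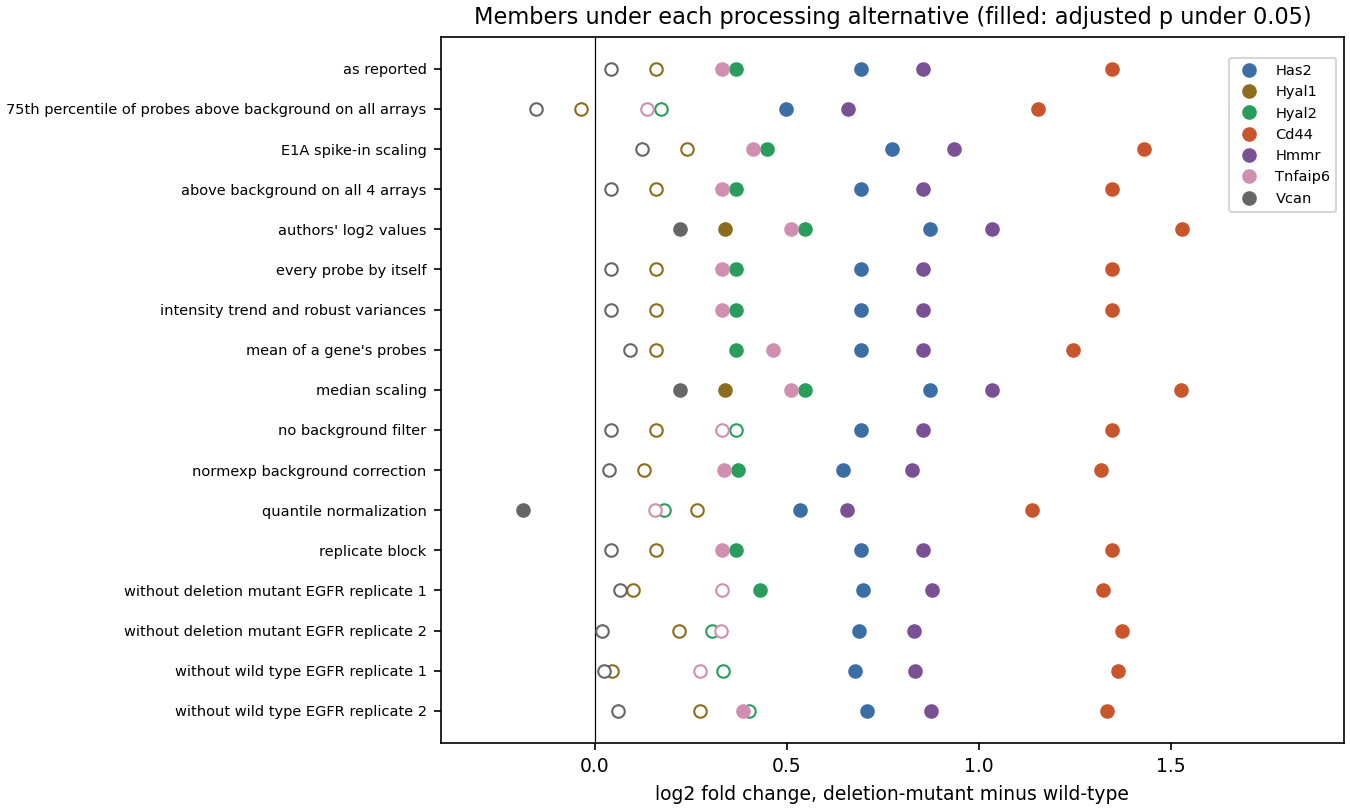
Log2 fold change of the 7 tested members as reported and under each of the 16 alternatives; filled points passed an adjusted p of 0.05. Cd44, Hmmr and Has2 stay filled and to the right of 0 in every line, Hyal2 and Tnfaip6 are open in 6 lines each, and Vcan falls on both sides of 0.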

How the data were processed

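Total RNA of the 4 samples was labelled with Cy3 and hybridised to 1-colour Agilent arrays. Per the file headers, the authors read them with Feature Extraction 10.10.1.1 (protocol GE1_1010_Sep10), which detrends and background-subtracts each spot, and deposited the processed signal as intensity on a linear scale beside raw mean and local background intensity and 0 or 1 flags (other). The deposited matrix of log2 values equals the log2 processed signal plus a constant per array. The sources used here do not state whether replicates were separate cultures.

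Spots flagged as uneven or population outliers and control spots were left out, log2 values of a probe's spots were averaged, and each array's 75th percentile was subtracted. The 25162 probes well above background on both arrays of a group were kept, and each gene was represented by its brightest kept probe, which gave 18093 features. Groups were compared with limma 3.58.1 (R 4.3.3; lmFit, eBayes; 2 residual and 2.18 prior degrees of freedom), with Benjamini-Hochberg adjustment at 0.05. Further symbols were matched through RefSeq accessions. In simulated data of 18093 features with 200 changed, 71.0% of 2-fold and 95.3% of 4-fold changes were recovered. In the data 10631 features were called, so the adjustment was less strict there and these rates do not carry over.

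The members and lists were chosen with earlier results of these data known. All members and their probes are named. Of the other pathway genes, called genes that changed at least 2-fold and uncalled genes in groups of 5 or fewer were named by rule, and the rest were chosen after their values were seen. Some listed genes enter the counts and sums but are not reported here by name. The alternatives are given in the closing section. The number of arrays limits the precision, and only mRNA was measured. Figures were drawn with matplotlib 3.10.9 in Python 3.11.15.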

Additional observations from a re-analysis of the deposited data

How the results depend on the processing

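Cd44, Hmmr and Has2 kept their direction and passed under each of the 16 alternatives, with log2 fold changes of 1.14 to 1.53, 0.66 to 1.03 and 0.50 to 0.87. Hyal2 and Tnfaip6 stayed above 0 but were each lost under 6. Members called higher numbered 5, and 3 under quantile normalization and under the percentile of probes above background on all arrays, and 3 to 4 without 1 array. Under quantile normalization 1 member, Vcan, was called lower. The sign turned for Vcan in these scalings (-0.19 and -0.15) and for Hyal1 in the latter (-0.035). Median scaling and the authors' values called 7 members higher. Of the 18093 features they called 8696 and 8700 higher, in place of 6260 as reported. The median of all features was 0.25 with both of these scalings, -0.13 with the percentile of detected probes and 0.07 as reported. The share of called features that were higher was 58.9%, 73.5% under median scaling, 38.9% with the percentile of detected probes, and 51.1% and 65.8% for quantile and spike-in scaling.

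With no background filter, 34816 features were tested in place of 18093, so the counts have unlike totals. Of these, 6466 were called in place of 10631, and 3741 were higher in place of 6260. Among the members 4, with Has1 among them, were higher in place of 5. Of the other pathway genes, 3 and 8 were then higher and lower in place of 7 and 13. Without that filter Has1 passed (limma adjusted p = 0.0365) between signals that were at background on every array. The range without 1 array was 7815 to 9561 features, 5 to 7 pathway genes higher and 9 to 12 lower, with the lone array of a group assumed to vary like the other group. With the replicate number as a block, 9990 features and 5 members higher were called. Same-numbered arrays share a slide row. The correlation of their deviations across features was 0.047, and the labels name nothing that a number marks, so the replicate number was not used as a pairing. The cause of the other differences was not tested.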
